A study of Mus musculus with 12 samples.

Results

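The genes described here encode the nuclear subunits and assembly factors of respiratory complexes II, III and IV, the electron carrier cytochrome c, and ATP synthase. They were taken by symbol from the unnormalized table: symbols starting with Sdhb, Sdhc, Sdhd, Uqcr or Atp5, or with Cox and a digit, together with Cyc1, Cycs, Bcs1l, Surf1 and Atpif1. The same rule left out cytochrome oxidase subunits of families with forms for different tissues (Cox4i1, Cox4i2, Cox6a1, Cox6a2, Cox7a1, Cox7a2, Cox7a2l, Cox8a and Cox8b). It did take Cox6b1, Cox6b2, Cox7b2 and Cox8c. It took 45 symbols with 56 probes. Of these, 41 genes with 51 probes were kept because at least 4 of the 12 arrays gave the probe a detection p-value under 0.05. They are 41 of the 10967 genes kept from the whole array, or 51 of 14827 kept probes. The 4 genes not kept were Uqcrfs1, detected on 3 arrays, and Uqcrq, Cox7b2 and Cox8c, each detected on 0 arrays. Sdha, Sco1, Sco2 and the subunits encoded in mitochondrial DNA were not analysed here.

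Complexes II, III and IV pass electrons from succinate and ubiquinol through cytochrome c to oxygen, and complexes III and IV pump protons out of the mitochondrial matrix as they do so. ATP synthase lets the protons flow back through a rotating ring in the inner membrane and uses that rotation to make ATP in its catalytic head, F1. The intestinal epithelium uses this pathway to power absorption, and the coactivators PGC-1α and PGC-1β are known to raise transcription of its nuclear genes through estrogen-related receptors and nuclear respiratory factors.

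The samples were total RNA of ileum tumours, each on 1 Illumina bead array. All 12 came from strain FVB/N at 3 to 4 months of age and carried the APCmin allele, a truncating mutation of the tumour suppressor Apc that gives rise to intestinal adenomas. Arrays 1 to 6 were labelled FVBN/APCmin and arrays 7 to 12 iPGC-1β/APCmin. The labels describe neither the PGC-1β construct nor its promoter, do not say whether the tumours came from separate animals, and give no chip or date, so p-values measure the spread between these 12 samples.

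Levels below are background-corrected, quantile-normalized log2 intensities of the probe that stands for a gene, and they are not compared between genes. Differences are iPGC-1β/APCmin minus FVBN/APCmin with n = 6 arrays in each group, tested by limma over all 10967 genes with Benjamini-Hochberg adjustment. Mean deposited intensity per array ran from 454.4 to 752.5, and 12858 to 14445 probes were detected. All 10 epithelial markers on the array were kept, as was the ileal bile acid binding protein gene Fabp6. Arrays 6 and 7 stood apart from the rest of their groups in lymphocyte markers. The mean level of 16 T and B cell markers, centred per gene, lay between 1.40 and 1.80 on arrays 1 to 5 but at -0.96 on array 6, and between -2.16 and -1.36 on arrays 8 to 12 but at 2.08 on array 7. Whether these 2 arrays carry the right labels could not be checked from the files. The single probe for Ppargc1b, the gene of PGC-1β, did not bear out the genotype label: its difference was -0.55 (SE 0.30, limma adjusted p = 0.296; exact two-sided permutation p = 0.115 over 924 relabelings, whose smallest possible p is 0.0022). No label says whether the transgene carries the target of that probe, so each direction below rests on the labels.

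Messenger RNA for the respiratory complexes and ATP synthase was mostly higher on the arrays labelled iPGC-1β/APCmin, with a median difference above 0 in each role group. The difference was above 0 for 40 of the 41 genes, beside 48.55% of all genes tested. Its median over the 41 was 0.78 on the log2 scale, beside a median of -0.01 over all genes tested. By limma's adjusted p, 10 of the 41 genes rose and 0 fell, where 2.22% of all genes rose. They were Sdhc and Sdhd of complex II, Cyc1 of complex III, Cycs, Cox5a and Cox5b of complex IV, the complex IV assembly genes Cox10 and Cox17, and Atp5f1 and Atp5g3 of ATP synthase. At an unadjusted p below 0.05, 31 were higher against a background of 11.5%. For 14 genes every array labelled iPGC-1β/APCmin lay above every array labelled FVBN/APCmin, which held for 1.93% of all genes. These 14 were the 10 above and Uqcrc2, Atp5a1, Atp5c1 and Atp5s. In whole tumours, a larger share of cells rich in mitochondria and more RNA per cell cannot be told apart.

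**Figure D1:**
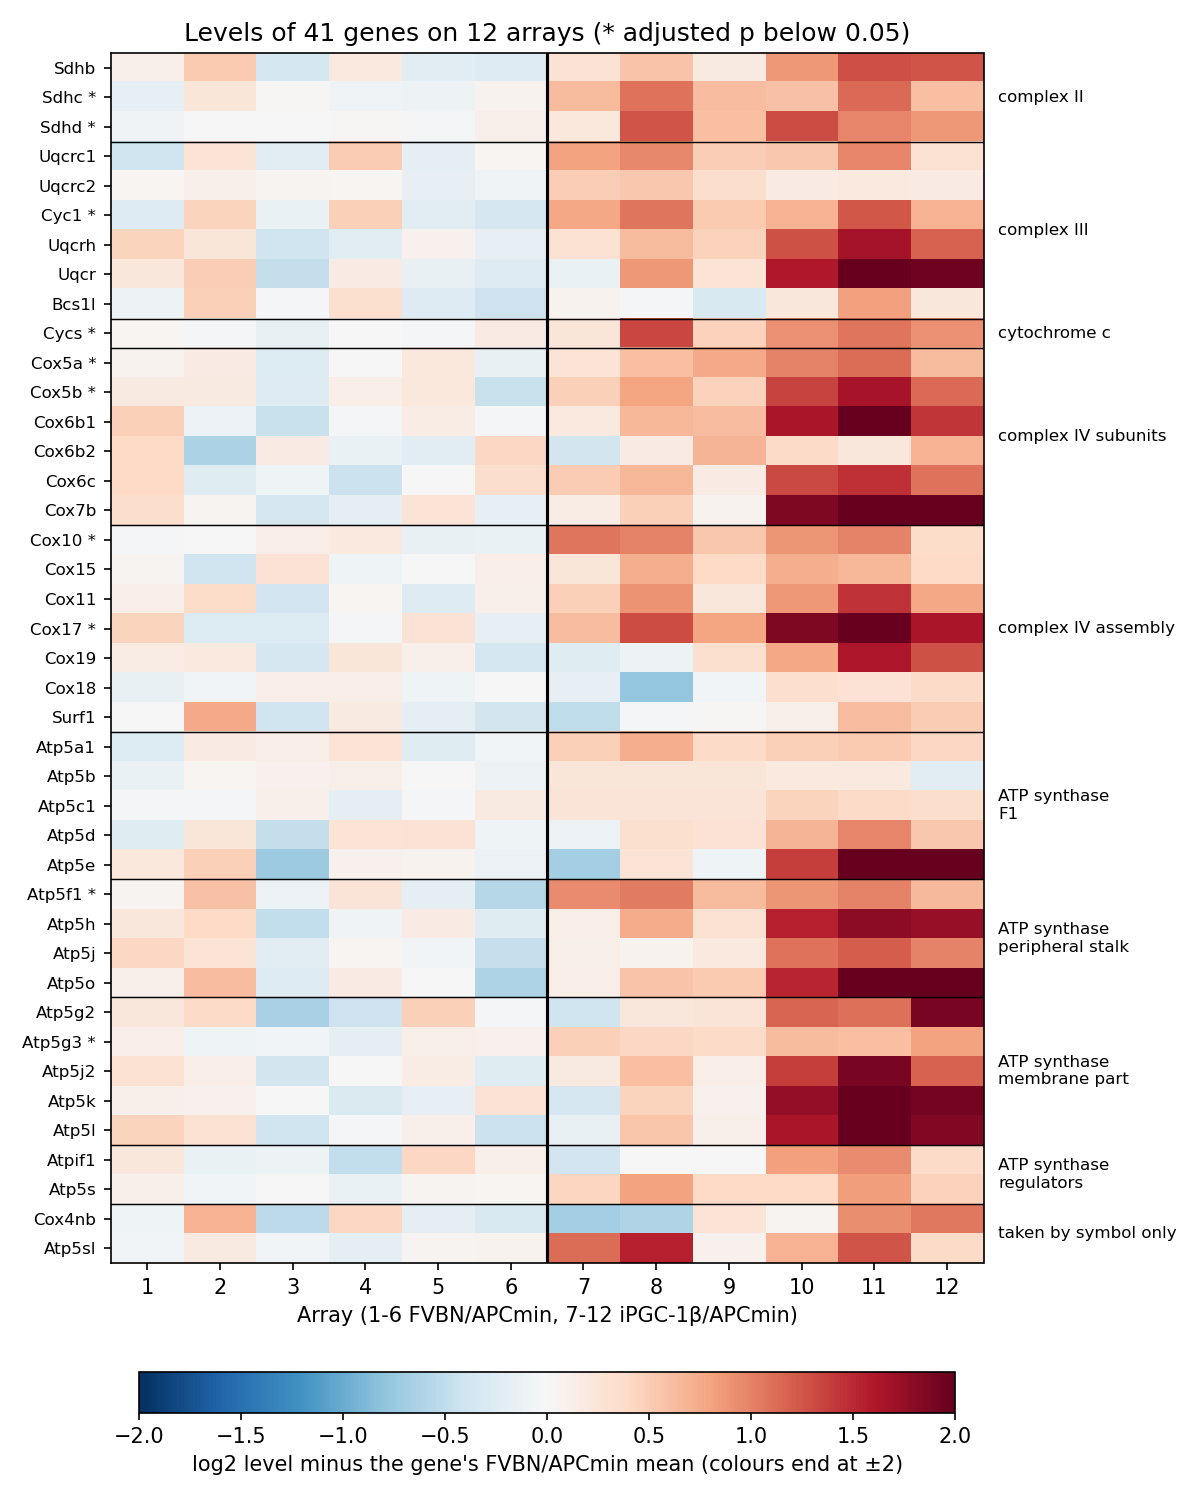
Log2 level of each of the 41 genes (rows, by role) on each of the 12 arrays (columns), minus the gene's mean over the 6 FVBN/APCmin arrays, with colours ending at -2 and 2. Arrays 10 to 12 are red in nearly every row, whereas arrays 7 and 9 are pale in many rows of ATP synthase and complex IV.

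The promoters of these genes were read as windows of 300 bases, 250 before and 50 after the RefSeq start (RefSeq sequences, build GRCm38.p6), since the genes were mostly higher together. Of the 41 genes, 33 had at least 1 window, and these had 37 windows in all; 7 of the 10 genes that rose had one. Both strands were searched for 4 short sequences that factors of nuclear respiratory genes bind. The core GCGCATGCG of nuclear respiratory factor 1 stood in 6 of 37 windows (16.2%), beside 3.19% of the 10629 windows of all genes tested and 1.75% of all 32851 windows. This core nearly reads the same on the opposite strand, so a site can match on both, and each window was counted once. The estrogen-related receptor element AAGGTCA stood in 16.2% of the 37 windows, beside 3.46% and 4.72%. The ETS core CCGGAAG, bound by GABP, stood in 37.8%, beside 16.1% and 8.86%, and the YY1 core AAGATGGC in 16.2%, beside 4.06% and 2.75%. No pair of different motifs overlapped in these windows. Among the 7 windows of genes that rose, 1 held the NRF1 core and 2 held each of the others. These shares are descriptions of letters and were not tested.

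Stretches of 4 of the windows are shown because each belongs to a gene that rose and holds a match upstream of its start, one for the estrogen-related receptor, one for NRF1 and 2 for ETS. Capitals mark the match, on either strand, and each stretch is written 5′ to 3′ along the gene's own strand. The Atp5g3 stretch is the 98 bases before the start (chr2:73911327-73911424, minus strand) with the estrogen-related receptor element. The Cycs stretch runs from 106 to 8 bases before the start (chr6:50566577-50566675, minus strand) with the NRF1 core. Those of Cox10 (73 bases, chr11:64079473-64079545, minus strand) and Sdhd (92 bases, chr9:50603850-50603941, minus strand) end at the base before the start and hold the ETS core.
Atp5g3: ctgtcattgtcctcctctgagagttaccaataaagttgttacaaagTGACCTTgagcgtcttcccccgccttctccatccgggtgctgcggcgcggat
Cycs: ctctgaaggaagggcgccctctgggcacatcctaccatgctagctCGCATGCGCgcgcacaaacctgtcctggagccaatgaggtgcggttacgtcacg
Cox10: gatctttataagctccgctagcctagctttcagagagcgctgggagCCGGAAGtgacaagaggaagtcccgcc
Sdhd: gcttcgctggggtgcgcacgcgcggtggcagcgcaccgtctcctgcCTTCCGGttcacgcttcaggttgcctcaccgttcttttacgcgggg

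Complex II, succinate dehydrogenase, links the citric acid cycle to the respiratory chain, and 2 of its 3 genes tested rose. Sdhc encodes a membrane anchor subunit that helps bind ubiquinone. Its log2 levels were 11.87, 12.28, 12.05, 11.96, 11.94 and 12.09 on arrays 1 to 6, and 12.66, 13.12, 12.65, 12.62, 13.16 and 12.63 on arrays 7 to 12. The groups did not overlap, array 7 lay with the rest of its group, and the difference was 0.78 (SE 0.15, adjusted p = 0.0146), a 1.71-fold rise. Sdhd encodes the other anchor subunit, and the ETS core of its promoter is shown above. It read 9.70, 9.76, 9.77, 9.80, 9.74 and 9.87 on arrays 1 to 6, and 9.99, 11.03, 10.38, 11.07, 10.74 and 10.63 on arrays 7 to 12. The FVBN/APCmin arrays spanned only 0.17, and array 7, the lowest of its group, stood just above the highest of them. Sdhd rose by 0.87 (SE 0.18, adjusted p = 0.0223). Sdhb, the iron-sulfur subunit that hands electrons on, had a difference of 0.74 (SE 0.23, adjusted p = 0.0786), with arrays 7 and 9 inside the range of the controls.

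Complex III takes electrons from ubiquinol and gives them to cytochrome c, and 1 of its 6 genes tested, Cyc1, rose. Cyc1 encodes cytochrome c1, the heme protein that makes this last transfer. Its levels were 12.13, 12.83, 12.26, 12.87, 12.19 and 12.06 on arrays 1 to 6, and 13.15, 13.46, 12.91, 13.08, 13.63 and 13.09 on arrays 7 to 12. The groups were split by a narrow gap, between 12.87 on array 4 and 12.91 on array 9, and the difference was 0.83 (SE 0.19, adjusted p = 0.0337). The core subunits Uqcrc1 and Uqcrc2 had differences of 0.68 (SE 0.19, adjusted p = 0.0590) and 0.32 (SE 0.13, adjusted p = 0.164), the latter with groups that did not overlap. Larger but more uneven were the hinge subunit Uqcrh, at 0.92 (SE 0.24, adjusted p = 0.0516), and the small subunit Uqcr, now named Uqcr11, at 1.13 (SE 0.37, adjusted p = 0.0901). On array 7 Uqcr read 11.88, within the FVBN/APCmin range of 11.54 to 12.50, and on array 11 it read 14.25. Bcs1l, the ATPase that inserts the Rieske iron-sulfur subunit, differed by 0.17 with a 95% interval of -0.29 to 0.63.

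Cytochrome c, encoded by Cycs, carries electrons from complex III to complex IV and, once released from mitochondria, takes part in apoptosis. Cycs read 7.28, 7.22, 7.10, 7.24, 7.22 and 7.41 on arrays 1 to 6, and 7.49, 8.58, 7.70, 8.15, 8.31 and 8.15 on arrays 7 to 12. Array 8 was highest, and arrays 7 and 9 lay nearest to the FVBN/APCmin arrays without overlapping them. The rise was 0.82 (SE 0.20, adjusted p = 0.0393). Its other kept probe gave 0.97 (SE 0.23, adjusted p = 0.0404 among all kept probes). Without background correction Cycs differed by 0.53 (adjusted p = 0.0455).

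Complex IV, cytochrome c oxidase, reduces oxygen to water, and 2 of the 6 nuclear subunit genes tested rose, Cox5a and Cox5b. Both are subunits that all tissues use and that surround the catalytic core. Cox5a read 13.33, 13.42, 12.98, 13.25, 13.47 and 13.11 on arrays 1 to 6, and 13.53, 13.86, 14.01, 14.24, 14.37 and 13.88 on arrays 7 to 12. Array 7 exceeded the highest FVBN/APCmin array by less than the spread within either group, and the rise was 0.73 (SE 0.17, adjusted p = 0.0337). Cox5b read 13.48, 13.48, 13.04, 13.43, 13.51 and 12.85 on arrays 1 to 6, and 13.78, 14.09, 13.76, 14.65, 14.95 and 14.43 on arrays 7 to 12. It rose by 0.98 (SE 0.22, adjusted p = 0.0337), with arrays 10 and 11 highest and no overlap.

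The other subunits of complex IV had higher means without passing. Cox7b, a small subunit in contact with the membrane, had one of the 3 largest differences of all 41 genes. Its levels were 7.80, 7.51, 7.11, 7.25, 7.72 and 7.29 on arrays 1 to 6, and 7.59, 7.92, 7.52, 9.31, 9.81 and 9.49 on arrays 7 to 12. Arrays 7 and 9 lay within the range of arrays 1 to 6, while arrays 10 to 12 stood more than 1 log2 unit above it, so a mean difference of 1.16 carried an SE of 0.39 (adjusted p = 0.103). Cox6b1, which sits over the cytochrome c binding side, and Cox6c differed by 1.10 (SE 0.29, adjusted p = 0.0532) and 0.87 (SE 0.23, adjusted p = 0.0546), each with 5 of 6 arrays above every control. Cox6b2, the testis form of Cox6b1, was dim, detected on 5 of 6 FVBN/APCmin arrays, and differed by 0.29 (95% interval -0.20 to 0.79), or by 0.095 without background correction.

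Assembly of complex IV needs heme A, copper and factors that insert subunits, and 2 of these 7 genes rose. Cox10 makes the farnesylated heme that Cox15 then converts to heme A. Cox10 read 10.79, 10.80, 10.95, 11.02, 10.67 and 10.69 on arrays 1 to 6, and 11.89, 11.80, 11.36, 11.6999, 11.80 and 11.19 on arrays 7 to 12. Here array 7 was the highest of all 12 and array 12 the lowest of its group, and the rise of 0.81 (SE 0.15, adjusted p = 0.0139) had the smallest p of the 41 genes. Cox17, the copper chaperone of the intermembrane space, had the largest rise. It read 11.63, 10.92, 10.91, 11.17, 11.47 and 11.03 on arrays 1 to 6, and 11.82, 12.49, 11.98, 13.05, 13.70 and 12.82 on arrays 7 to 12. Its rise was 1.45 (SE 0.29, adjusted p = 0.0167), or 2.73-fold, although array 7 lay only a little above array 1.

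The remaining assembly genes did not pass. Cox11 and Cox19, which also handle copper, differed by 0.78 (SE 0.22, adjusted p = 0.0604) and 0.61 (SE 0.30, adjusted p = 0.239), and Cox15 by 0.53 (SE 0.16, adjusted p = 0.0718). Surf1, a factor for the early core, differed by 0.12 (95% interval -0.39 to 0.64), and its array 7 value of 7.91 was below every control. Cox18 inserts mitochondrial subunit 2 into the membrane and was the only gene with a difference below 0. It read 9.17, 9.27, 9.44, 9.45, 9.22 and 9.33 on arrays 1 to 6, and 9.14, 8.54, 9.26, 9.65, 9.60 and 9.70 on arrays 7 to 12. Array 8 was low, arrays 10 to 12 were above every control, and the mean difference was -0.0004 (SE 0.20, 95% interval -0.42 to 0.42).

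**Figure D2:**
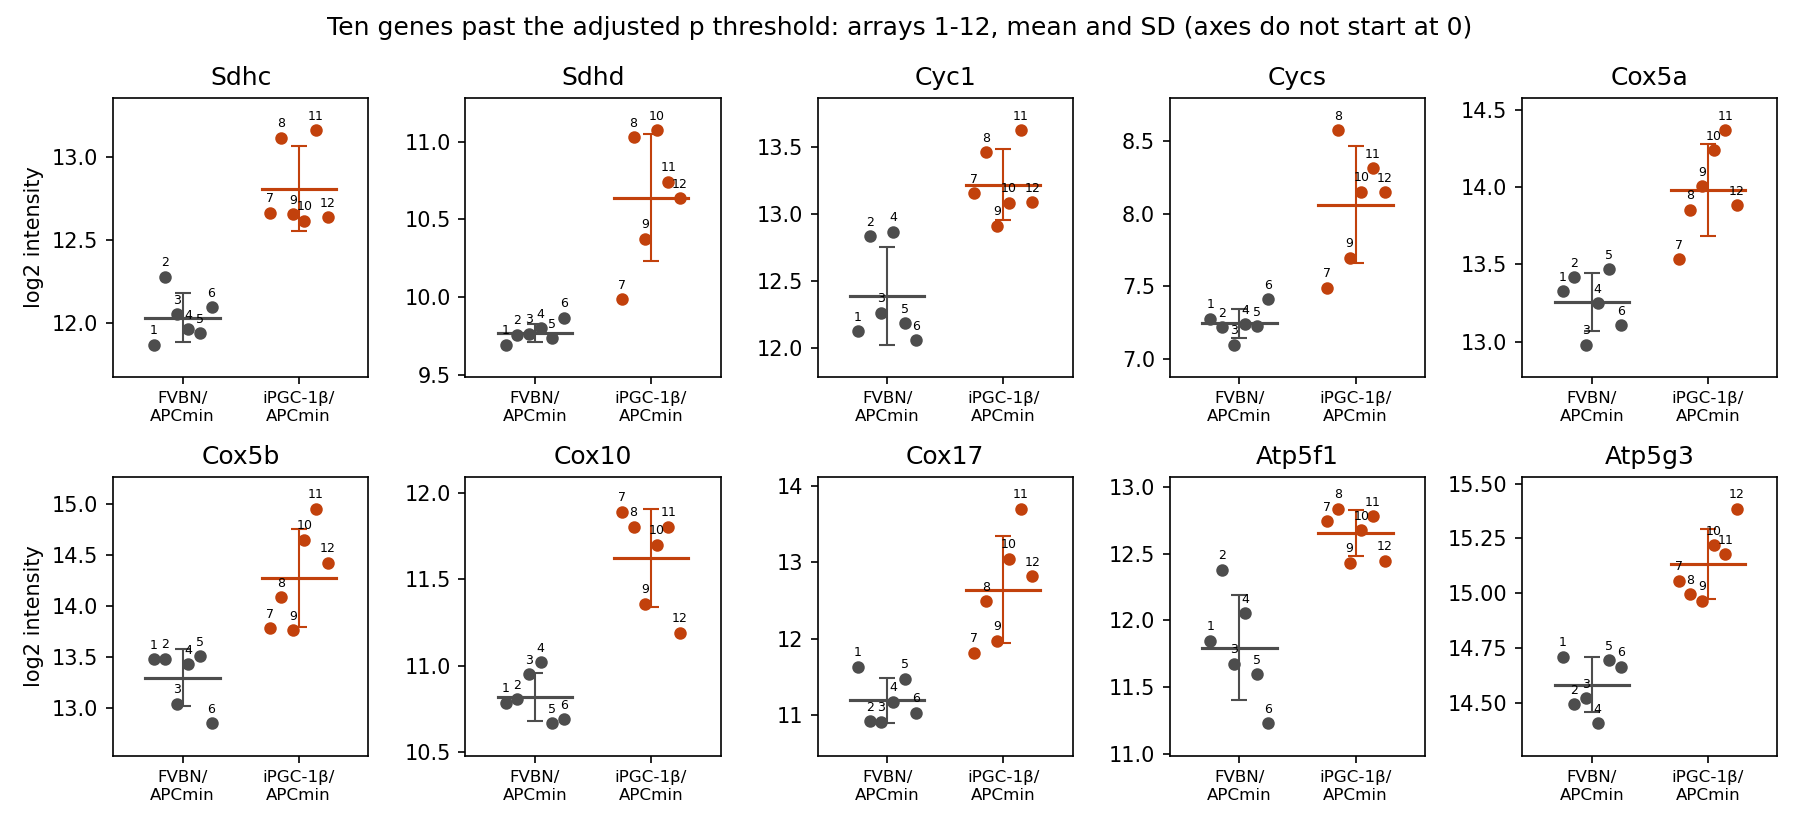
Log2 level on each array for the 10 genes that passed the adjusted p of 0.05, with array numbers beside the points and bars for the mean and SD of 6 arrays. The groups do not overlap in any panel, and array 7 is the lowest of its group for Sdhd, Cycs, Cox5a and Cox17 but the highest for Cox10.

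Within ATP synthase, 2 of 16 genes tested rose, 1 in the peripheral stalk and 1 in the membrane part. F1 is a ring of α and β subunits around the γ, δ and ε shaft, and 0 of its 5 genes passed by limma's adjusted p, although 3 were higher at an unadjusted p below 0.05. The median difference over the 5 was 0.45. Atp5a1 encodes the α subunit. Its levels were 11.42, 11.87, 11.83, 11.97, 11.46 and 11.65 on arrays 1 to 6, and 12.18, 12.43, 12.09, 12.18, 12.23 and 12.12 on arrays 7 to 12. The groups did not overlap and the 6 iPGC-1β/APCmin arrays were close together (SD 0.12), with a difference of 0.50 (SE 0.14, adjusted p = 0.0588). The γ subunit gene Atp5c1 had the smallest SD of any of the 41 genes among the arrays labelled iPGC-1β/APCmin, 0.08, and a difference of 0.33 (SE 0.12, adjusted p = 0.131).

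The β subunit gene Atp5b, where ATP is made, differed by 0.16 (95% interval -0.15 to 0.46). Its probe was among the brightest on the array, at the 99.98th percentile, with deposited intensities of 29528.1 to 51915.5, and the files carry no saturation flag. At this end of the scale the normalized level is set by the probe's rank on its array. Atp5d and Atp5e, for δ and ε, differed by 0.45 (SE 0.20, adjusted p = 0.199) and 0.88 (SE 0.46, adjusted p = 0.275). Atp5e had the widest spread of all, from 6.86 on array 7 to 9.81 on array 12.

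The peripheral stalk holds F1 still against the rotating shaft, and 1 of its 4 genes rose. Atp5f1, now named Atp5pb, encodes stalk subunit b. It read 11.85, 12.38, 11.67, 12.05, 11.59 and 11.23 on arrays 1 to 6, and 12.74, 12.84, 12.43, 12.68, 12.78 and 12.45 on arrays 7 to 12. Its spread was larger among the controls, where array 2 reached 12.38 beneath the lowest value of 12.43, and it rose by 0.86 (SE 0.18, adjusted p = 0.0260). Atp5o encodes OSCP, the link between stalk and head, and had the largest difference after Cox17. It read 7.81, 8.32, 7.43, 7.86, 7.69 and 7.07 on arrays 1 to 6, and 7.83, 8.27, 8.23, 9.22, 10.18 and 9.72 on arrays 7 to 12. Arrays 7 to 9 lay below array 2 and arrays 10 to 12 above all controls, and the difference was 1.21 (SE 0.38, adjusted p = 0.0817). Atp5h, for subunit d, differed by 1.05 (SE 0.30, adjusted p = 0.0644). Atp5j, for factor 6, differed by 0.61 (SE 0.24, adjusted p = 0.153) on its brightest probe and by 1.26 (SE 0.27, adjusted p = 0.0245 among all kept probes) and 1.01 (SE 0.30, adjusted p = 0.0760) on its other probes.

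The membrane part holds the ring of c subunits that protons turn and small subunits that pair the enzyme into dimers, and 1 of its 5 genes tested rose. Atp5g2 and Atp5g3 are separate genes for the same mature c subunit. Atp5g3 read 14.71, 14.49, 14.52, 14.41, 14.70 and 14.66 on arrays 1 to 6, and 15.06, 14.9953, 14.97, 15.22, 15.18 and 15.39 on arrays 7 to 12. All 6 lay above the controls with a narrow spread, and the rise was 0.55 (SE 0.14, adjusted p = 0.0465). The Atp5g3 probe was also very bright, with a mean percentile of 99.92, where the normalized level is set by rank. With arrays shifted to a common 75th percentile instead, Atp5g3 differed by 0.70 and did not pass (limma adjusted p = 0.0913). Atp5g2 differed by 0.70 (SE 0.34, adjusted p = 0.239), with array 7 at 9.35 and array 12 at 11.65. The dimer subunits Atp5k and Atp5l, for e and g, differed by 1.04 (SE 0.41, adjusted p = 0.150) and 1.02 (SE 0.37, adjusted p = 0.127), and Atp5j2, for f, by 0.90 (SE 0.28, adjusted p = 0.0835). Atp5k was dim and was detected on 3 of 6 FVBN/APCmin and 5 of 6 iPGC-1β/APCmin arrays, and without background correction its difference was 0.40.

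Neither regulator of ATP synthase passed. Atpif1, the inhibitor that stops the enzyme from running in reverse, differed by 0.29 (95% interval -0.22 to 0.81), with 3 of 6 arrays above the control mean. Atp5s, coupling factor B and now named Dmac2l, read 7.55, 7.39, 7.44, 7.30, 7.4975 and 7.48 on arrays 1 to 6, and 7.87, 8.25, 7.84, 7.84, 8.28 and 7.91 on arrays 7 to 12. Its groups did not overlap, and the difference was 0.55 (SE 0.16, adjusted p = 0.0621). The symbol rule also took a pair of genes that belong to none of these complexes. Cox4nb, now Emc8 of the endoplasmic reticulum membrane complex, differed by 0.17 (SE 0.32, adjusted p = 0.794), and Atp5sl, now the complex I assembly factor Dmac2, by 0.85 (SE 0.23, adjusted p = 0.0542).

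**Figure D3:**
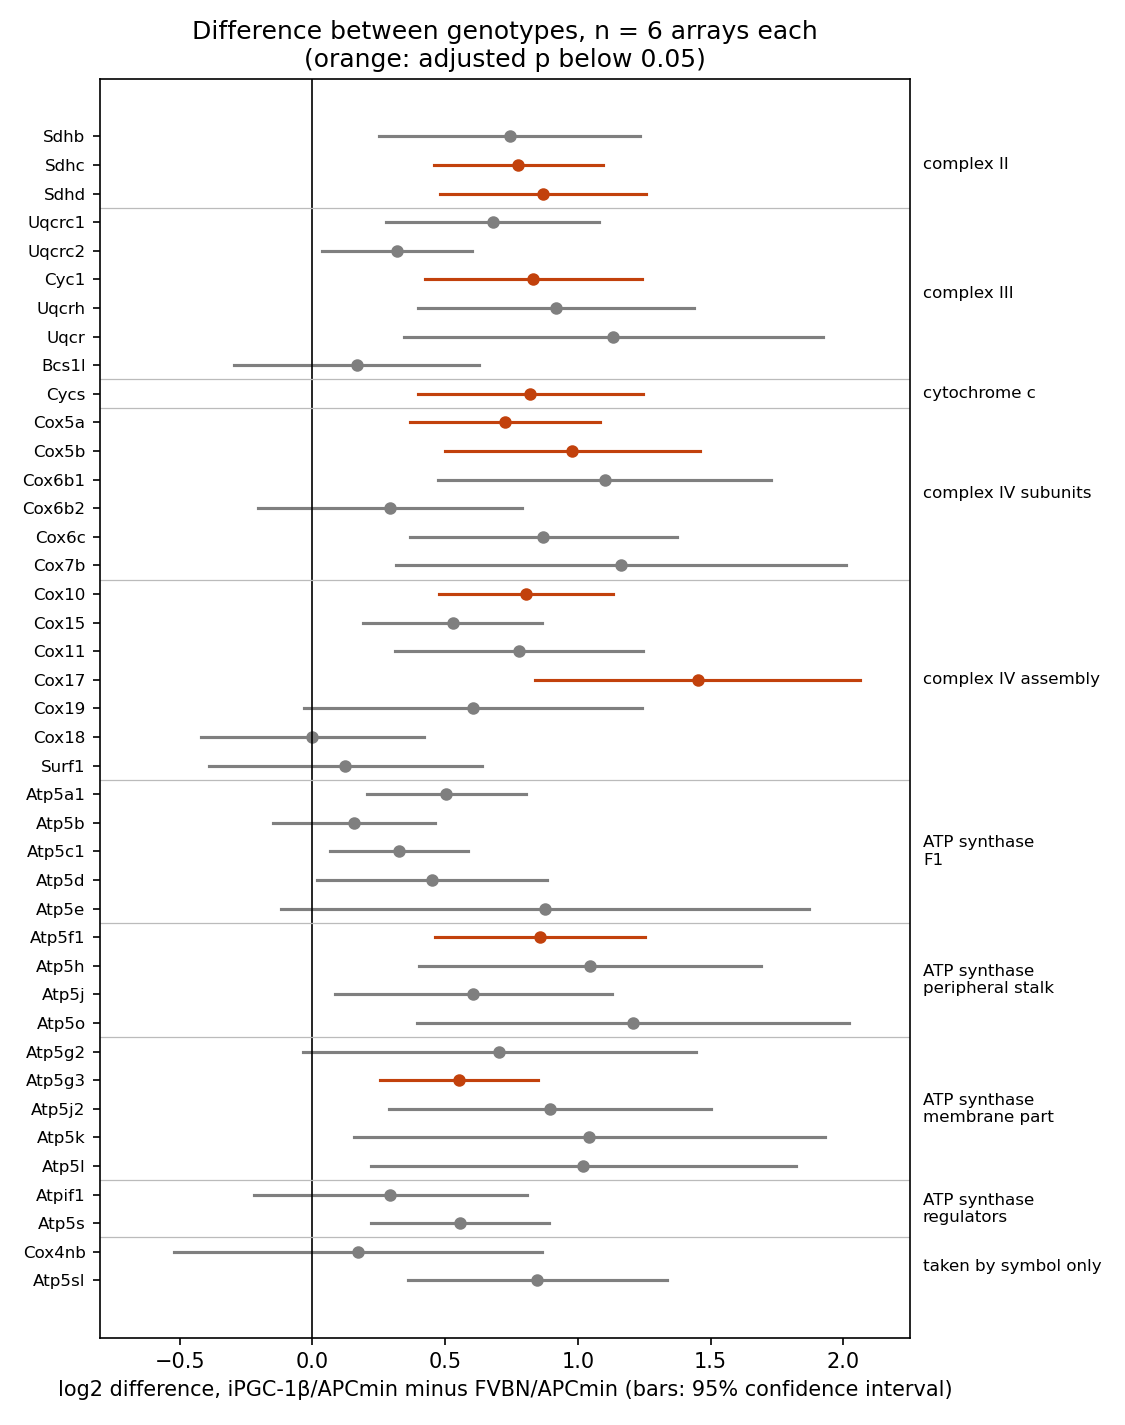
Difference between the genotypes on the log2 scale for each of the 41 genes, by role, with 95% confidence intervals from limma and n = 6 arrays in each group. Differences run from -0.0004 (Cox18) to 1.45 (Cox17), and the 10 genes past the adjusted p of 0.05 are drawn in orange.

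The iPGC-1β/APCmin arrays differed more among themselves than the controls did, and not equally for all genes. The SD was larger in that group for 33 of the 41 genes. This share is close to the 80.8% over all genes tested, so the wider spread was not particular to the 41. Array 11 was the highest of its group for 25 of the 41 genes, and array 7 the lowest for 21 and array 9 for 13. The number of the 41 genes above the highest FVBN/APCmin array was 19 on array 7, 30 on array 8, 20 on array 9, 37 on array 10, 39 on array 11 and 36 on array 12. These counts for single arrays were not made over all genes tested, so they cannot show a trait particular to the 41. The deposited intensities of arrays 11 and 12 had the highest means of the series, 752.5 and 731.1, and that of array 10 was 546.8. This mean was added as a covariate after seeing the data. Then 10 of the 41 genes rose, and 245 of all 10967 genes did. The part of intensity in the differences was not tested.

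Medians of role groups differed in this pattern, but genes within a group did too. F1 holds Atp5e, with the widest SD given below, and the membrane part holds Atp5g3, with one of the narrowest. Relative to the FVBN/APCmin mean, the median over the 5 membrane genes of ATP synthase was -0.15, 0.45, 0.14, 1.39, 1.89 and 1.86 on arrays 7 to 12, whereas for the 5 F1 genes it was 0.25, 0.27, 0.26, 0.48, 0.53 and 0.42. Complex II stood at 0.28, 1.09, 0.60, 0.86, 1.13 and 0.86. The 6 genes with the widest SD among these arrays were Atp5e (1.22), Atp5k (1.12), Cox7b (1.04), Atp5l (0.97), Uqcr (0.95) and Atp5o (0.94). On arrays 10 to 12 each of them lay above every control. The narrowest SDs were those of Atp5c1 (0.08), Atp5a1 (0.12), Atp5g3 (0.16), Uqcrc2 (0.17), Atp5f1 (0.17) and Atp5b (0.18), of which Atp5f1 and Atp5g3 passed. Differences between role groups were not tested, because the genes share arrays.

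Of 10 further kept probes of these genes, 9 had a difference above 0, and none had the opposite sign to the main probe of its gene, but sizes varied. Those of Atp5j, at 1.26 and 1.01, differed by more than the 0.61 of the probe used. The further probes of Sdhb gave 0.74 and 0.75, that of Sdhc 0.86 (SE 0.24, adjusted p = 0.0637 among all kept probes) and that of Cox6b1 1.12. The further Surf1 and Cox4nb probes gave 0.32 and 0.48, and that of Cox18 gave -0.22 (95% interval -0.81 to 0.37).

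**Figure D4:**
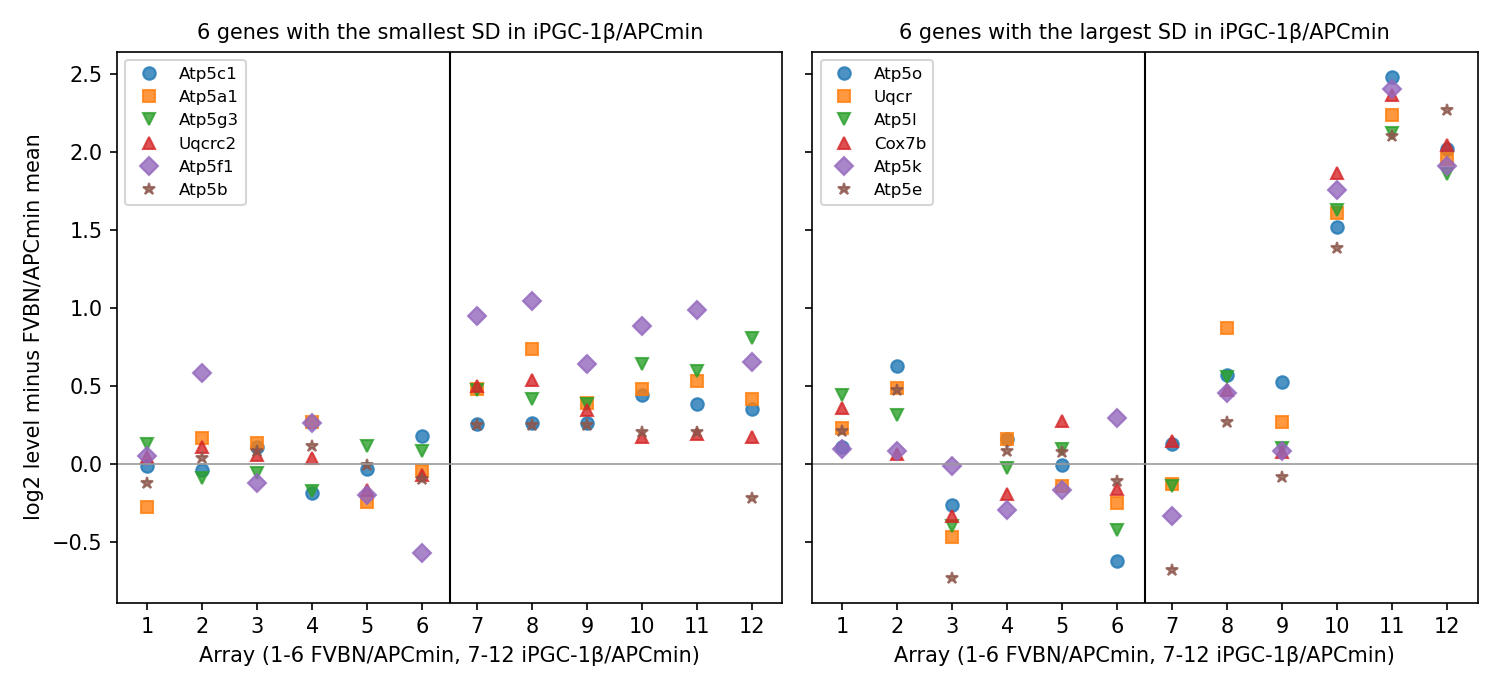
Log2 level minus the FVBN/APCmin mean on each array for the 6 genes with the smallest and the 6 with the largest SD among the iPGC-1β/APCmin arrays. The left panel shows arrays 7 to 12 within 0.47 of each other for each gene, and the right panel shows arrays 10 to 12 between 1.39 and 2.48 with arrays 7 to 9 below 1.

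The calls depended on which arrays were in the fit. Without array 7, 27 of the 41 genes rose (7.73% of all genes), and without arrays 6 and 7 together 25 did (9.63%). All 10 genes were among them each time. Leaving out array 1, 3, 5, 10 or 11 left 3 genes, Sdhc, Cox10 and Cox17, whose calls held in 12 of 12 such fits with adjusted p up to 0.0484, 0.0421 and 0.0494. In those fits 0.939%, 0.839%, 0.939%, 1.21% and 1.03% of all genes rose. The count was 5 without array 2 (1.06% of all genes), 6 without array 4 (1.15%) and 7 without array 12 (1.7%). It was 10 without array 8 (2.03%), 11 without array 6 (2.94%) and 16 without array 9 (2.66%). The highest adjusted p among these fits was 0.0618 for Sdhd, 0.0695 for Atp5f1, 0.0851 for Cyc1, 0.0865 for Cox5b, 0.0904 for Cox5a, 0.0977 for Cycs and 0.112 for Atp5g3.

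Lymphocyte markers moved with the groups and with the 2 arrays that stand apart. Of 10 T cell markers listed 8 were tested, with a median difference of -2.21 and 2 that fell, Cd3e (-2.31) and Cd8b1 (-2.12), and of 10 B cell markers 8 were tested, with a median of -3.12 and 0 that passed by limma. All 16 differences were below 0. Of the B cell markers all 8 had an unadjusted p below 0.05. Apart from arrays 6 and 7, the lymphocyte level split the labelled groups with a wide gap. Differences fitted with this level as a covariate therefore rest largely on those 2 arrays. In that fit 36 of the 41 genes were above 0, with a median of 0.58, beside a median of -0.0039 over all genes tested. Then 0 passed by limma's adjusted p, while 16 had an unadjusted p below 0.05 against a background of 5.05%, and 6 genes passed on the whole array. Of the 10 genes that rose, Cyc1, Cox10 and Atp5f1 had larger differences with the covariate, at 0.93, 0.99 and 1.10 (adjusted p = 0.207, 0.0972 and 0.102). The other 7 had smaller ones, by most for Cycs, at 0.50 (adjusted p = 0.494), and Sdhd, at 0.52 (adjusted p = 0.418). With the same covariate and without array 7, the median was 1.01, beside -0.0538 over all genes tested, and 40 of 41 were above 0. In this fit 0 of the 41 passed by adjusted p and 20 had an unadjusted p below 0.05 against a background of 6.29%. Array 7, with the highest lymphocyte level of all, had a median of 0.25 over the 41 genes relative to the control mean, and array 6, the lowest of its group in that level, had -0.10. Without array 7 the labelled groups did not overlap in that level. These fits therefore cannot separate it from the labels, and the part of lymphocyte RNA in the differences was not tested.

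**Figure D5:**
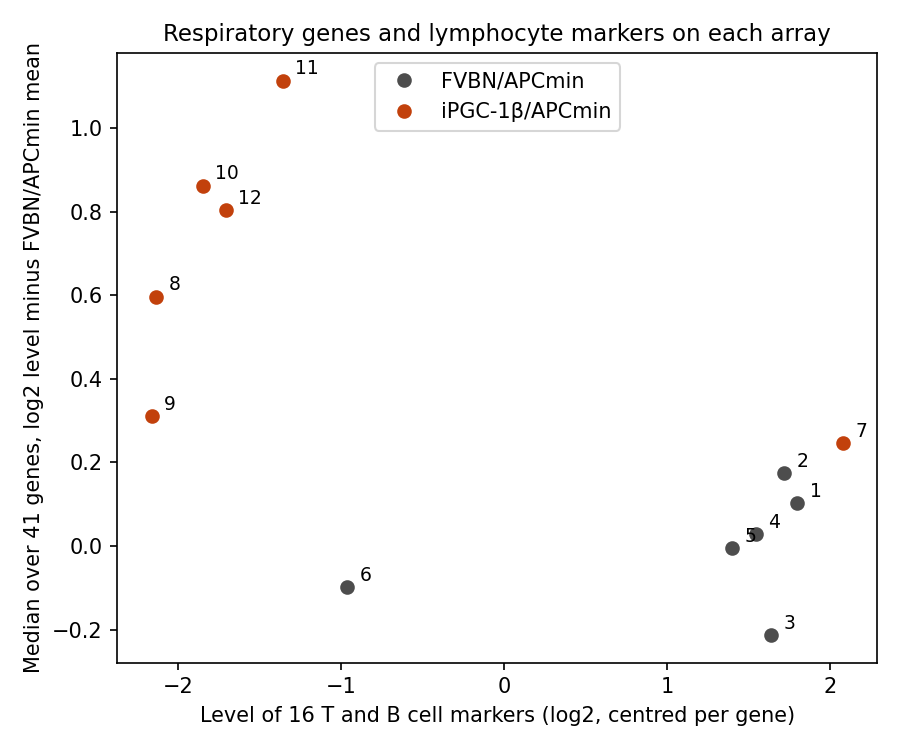
Median over the 41 genes of the log2 level minus the FVBN/APCmin mean (vertical) against the mean centred level of 16 T and B cell markers (horizontal), 1 point for each array. Array 7 lies at 2.08 on the horizontal axis, to the right of every FVBN/APCmin array, and at 0.25 on the vertical one, while arrays 8 to 12 lie between 0.31 and 1.11.

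Markers of muscle, epithelium, brown fat and liver were also read. Of 8 skeletal and heart muscle markers 4 were tested, with a median difference of -0.20. Of 8 smooth muscle markers 6 were tested, with a median of -0.10 and mean levels from -0.71 to 1.43 in FVBN/APCmin and from -0.996 to 1.44 in iPGC-1β/APCmin. The 10 epithelial markers had a median of -0.28 and the 4 ileal enterocyte markers -0.86. By limma 0 of these 24 genes passed the adjusted p, and 6 had an unadjusted p below 0.05, all of them lower epithelial or enterocyte genes. Of 6 brown fat and liver markers 2 were tested, with a median difference of 0.80. Cidea differed by 0.99 (limma unadjusted p = 0.049, adjusted p = 0.212) and Ttr by 0.60 (adjusted p = 0.643). Their level was 2.77 on array 12 and between -1.33 and 0.90 on the other 11 arrays. On arrays 9 to 12 it lay above the highest FVBN/APCmin level, 0.24 on array 6. On arrays 7 and 8 it lay below every control, at -0.93 and -1.33. The part of such tissue in the differences was not tested.

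Related genes are set beside these as values only, to be read against the 2.22% of all genes tested that rose. Of 34 complex I genes, which pass electrons from NADH into the chain, 13 rose, with a median difference of 1.02. Of the 5 kept cytochrome oxidase isoforms that the rule left out, Cox6a1 (1.17, adjusted p = 0.0365) and the muscle form Cox7a1 (2.10, adjusted p = 0.0465) rose. Among 8 carriers that supply ATP synthase, Slc25a4, the ADP/ATP exchanger of heart and muscle, rose by 1.42 (SE 0.27, adjusted p = 0.0146) and the outer membrane channel Vdac1 by 1.02 (SE 0.21, adjusted p = 0.0187). The ubiquitous exchanger Slc25a5 and the phosphate carrier Slc25a3 differed by 0.13 (95% interval -0.15 to 0.41) and 0.19 (-0.18 to 0.56). Of 14 regulators of nuclear respiratory genes, 7 had a difference above 0, and the median difference was -0.07. Among the 14, Sirt3, a mitochondrial deacetylase, rose by 1.82 (SE 0.23, adjusted p = 0.0018) and Tfb2m, a factor for mitochondrial transcription, by 0.72 (SE 0.17, adjusted p = 0.0388). Among genes of factors whose motifs were searched, Nrf1 (-0.43, adjusted p = 0.173), Esrra (0.61, adjusted p = 0.136) and Gabpa (0.45, adjusted p = 0.171) did not pass. Nor did the other GABP genes, Gabpb1 (0.05, adjusted p = 0.915) and Gabpb2 (-0.465, adjusted p = 0.201), and Yy1 was not among the genes kept. Of 11 glycolysis genes 4 rose (Aldoa 0.99, Gapdh 0.91, Pfkm 1.97 and Pgam1 1.09), with a median of 0.74 over the 11. The 7 that did not pass were Pkm2 (0.80), Pfkl (0.74), Tpi1 (0.57), Eno1 (0.56), Pgk1 (0.28), Ldha (0.06) and Pfkp (-0.07). Of the 11, 10 had a difference above 0, and for 6 the groups did not overlap. Whether any of these lists differed from the 41 genes was not tested.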

How the data were processed

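Per the file headers, the deposited table without normalization gives each of 25697 probes a mean signal intensity and a detection p-value on every array. A second deposited table holds intensity already normalized by the authors, as read from its column medians of 157.8 to 158.1. The submitters' processing notes name GenomeStudio but no version. In R 4.3.3, the neqc function of limma 3.58.1 estimated background through the detection p-values, quantile-normalized the corrected intensities with an offset of 16 and took log2. Probes were kept as described above, and the brightest kept probe stood for a symbol.

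The genotypes were compared with lmFit and eBayes with an intensity trend. Ppargc1b also had an exact permutation test. Array values are given for genes past the adjusted p of 0.05, the smallest p in each role group of the complexes, the 3 largest differences and any difference below 0. The genes and lists were chosen with earlier results of these data known. The number of arrays limits the precision.

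Alternatives were cyclic loess, an offset of 50, a shift to a common 75th percentile, background left uncorrected, detection at 0.01 on 6 arrays or no filter, all kept probes averaged or tested singly, no trend, array quality weights, the authors' table, a lymphocyte covariate, and leaving out arrays. An intensity covariate, and the lymphocyte covariate without array 7, were chosen after seeing the data. Symbols were matched to RefSeq names, 36 of 41 directly and 5 through synonyms.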

Additional observations from a re-analysis of the deposited data

Results flagged for a closer look

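Atp5b, the gene of the β subunit of ATP synthase, had 1 array far from the rest of its group. It had a log2 level of 14.97 on array 12, of the iPGC-1β/APCmin group, while the other 5 arrays of the group lay between 15.39 and 15.43. The gap to the nearest of them was 0.898 of the group's whole range, above Dixon's 95% critical value for 6 values. The deposited intensities did not show this gap: array 12 read 42058.7, within the 39857.8 to 51915.5 of its group, and quantile normalization sets the level of so bright a probe by its rank on the array. Among 82 sets of 6 values examined this was the only one past it, and chance alone passes about 1 in 20.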

How the results depend on the processing

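The median difference over the 41 genes stayed above 0 in all settings run, from 0.58 with the lymphocyte covariate to 1.01 with that covariate and without array 7, and Ppargc1b stayed below 0 and short of the threshold in each, from -0.30 without arrays 6 and 7 to -1.06 with the lymphocyte covariate. Members called higher are given here with all genes called higher in brackets, of 10967 unless stated. They numbered 10 in the fit reported (243), 6 after a shift to a common 75th percentile (199) and 5 with no filter (130 of 18148). Without arrays 6 and 7 there were 25 (1056), and with array quality weights 33 (1192). With the lymphocyte covariate there were 0 (3), and with that covariate and without array 7 also 0 (0). Genes called over the whole table in either direction numbered 378 in the fit reported and 200 with no filter. They numbered 2184 without arrays 6 and 7, 2403 with array quality weights, 6 with the lymphocyte covariate and 0 with that covariate and without array 7. Leaving out 1 array at a time gave 3 to 27 of the 41 genes. Over all genes it gave 129 to 1821 in either direction, with 92 to 848 of them higher. Having no filter tests more genes; otherwise the cause was not tested. The direction of no gene that passed reversed under any setting run. No paired analysis was possible because the groups share no replicate numbers. Probes near background depend on its correction: without it the differences were 0.40 for Atp5k, 0.095 for Cox6b2 and 0.53 for Cycs.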
